A study of Mus musculus with 33 samples.

Results

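The activity of MYC and of stabilised β-catenin in mouse liver was compared at both ends of tumour formation, 4 days after both alleles were switched on and in established liver nodules. Of the 33 RNA-seq libraries in the series, 20 entered the comparison, in 4 groups. The short-term groups were 5 livers of wild-type mice (day 4 controls) and 5 livers of R26-lslMYC/beta-cat Ex3 mice (day 4 MYC/Ex3). All 10 of these mice were 6 to 8 weeks old and received AAV8-TBG-CRE, a virus that delivers Cre recombinase under a hepatocyte promoter, 4 days before collection. The late groups were 3 liver nodules of Albeta-CreERT2/R26-lslMYC/beta-catEx3 mice (MYC/Ex3 tumours), in which a tamoxifen-inducible Cre is driven in hepatocytes, and 7 livers of wild-type mice collected 4 days after 4-hydroxytamoxifen (4-OHT controls). All animals were C57BL/6. The Ex3 allele is a Ctnnb1 gene whose exon 3 can be removed by Cre, and the R26-lslMYC allele carries MYC behind a stop cassette. The labels give no age or treatment for the tumour mice and no age for the 4-OHT controls, and they do not say whether the wild-type mice carried a Cre transgene.

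MYC is a transcription factor that raises the genes of ribosome production, nucleotide synthesis and the cell cycle. β-catenin, encoded by Ctnnb1, carries the Wnt signal to TCF/LEF factors, and loss of exon 3 removes the residues whose phosphorylation leads to its destruction. In the liver Wnt signalling maintains the hepatocytes around the central vein and opposes the periportal programme, and both proteins are frequent drivers of hepatocellular carcinoma and hepatoblastoma.

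For each gene 3 quantities were tested with limma. The day 4 effect is the mean of the day 4 MYC/Ex3 livers minus that of the day 4 controls. The tumour effect is the mean of the MYC/Ex3 tumours minus that of the 4-OHT controls. The difference between effects is the tumour effect minus the day 4 effect. All are on the scale log2(level + 1), where the level is the deposited RPKM (reads scaled to gene length and library depth) rescaled so that each library sums to 1000000, and a gene was called at a Benjamini-Hochberg adjusted p under 0.05. The 2 effects share no library. They differ in the controls, in the way Cre was delivered, in the tissue (whole liver or nodule) and in the sum of the deposited RPKM. Before rescaling that sum was 320814 to 361175 in the day 4 libraries and 68987 to 97790 in the late libraries. Stage cannot be told apart from these differences.

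The libraries held 3.75 to 9.30 M reads in genes (M, 1000000 reads), with 3.75 to 7.31 M in the day 4 groups and 6.65 to 9.30 M in the late groups. Values at the top of the range were compressed: the most abundant gene of a library had a level of 564 to 1095 and the fiftieth 424 to 730, so differences among genes such as Alb, Cyp2e1, Glul, H19 and Igf2 at these levels may be understated. In both day 4 groups 3 of 5 libraries were high in skin keratin reads (Krt5, Krt14 and Krt17 summing to over 1 RPKM), and the 4-OHT controls came in 2 title series, S14 (4 mice) and S15 (3 mice). By Xist and Ddx3y, 2 of 5 day 4 controls, 4 of 5 day 4 MYC/Ex3 livers, 4 of 7 4-OHT controls and 2 of 3 tumours were male. No 2 libraries held identical reads. Nothing says whether mice of a group were littermates, so the p-values measure only the spread between these mice. Fewer cells of a type and less RNA per cell cannot be told apart in bulk tissue.

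The targeted genes gave no check of the labels at gene level. Myc was at 2.14, 8.45, 12.2, 8.80 and 7.03 in the day 4 controls and at 12.2, 15.6, 5.35, 12.5 and 11.7 in the day 4 MYC/Ex3 livers. It was at 25.3, 25.4 and 25.7 in the tumours against 13.0 to 31.4 (median 21.9) in the 4-OHT controls. The groups overlapped at both stages, and neither effect was called (+0.59, adjusted p = 0.19, and +0.28, adjusted p = 0.52). The labels do not give the species of the MYC transgene, and reads of a human sequence need not be counted at the mouse gene. Ctnnb1 lay between 292 and 401 in all 20 libraries, and a count over the whole gene does not show the loss of 1 exon. Known targets of both proteins changed at both stages, as described below.

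Most of what MYC/Ex3 changed in 4 days was also changed in the tumours, while most of the tumour effect was not yet called at day 4. Of 15583 genes tested, the day 4 effect was called for 4485, of which 2713 were higher (17.4% of genes tested) and 1772 lower (11.4%). The tumour effect was called for 9049, of which 4681 were higher (30.0%) and 4368 lower (28.0%). A lasting change, called in both effects with the same sign, was found for 3618 genes: 2278 higher (14.6%) and 1340 lower (8.60%). These were 80.7% of the day 4 calls and 40.0% of the tumour calls. The difference between effects was itself called for 3612 genes, 1459 higher (9.36%) and 2153 lower (13.8%). Without the rescaling of RPKM to a common sum, the median tumour effect of all genes tested moved from 0.00 to 0.11. The tumour split became 5088 higher and 2269 lower, and that of the difference 1274 and 953. That fit adds the same 1 to smaller values, so it changes more than the scaling. Median ratio scaling divides each rescaled library by its median ratio to the geometric mean of the libraries. With it the tumour split was 4663 higher and 4288 lower, and that of the difference 1651 and 1990. The Spearman correlation of the 2 effects over genes was 0.64 and the Pearson correlation 0.56, as a description over genes, which are not independent.

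Changes belonging to 1 stage were counted only where the difference was called too. By that rule 2445 genes were tumour-only, with 1054 higher (6.76%) and 1391 lower (8.93%). Without the rescaling of RPKM these were 916 and 481, and the lasting genes 2586 higher and 854 lower. With median ratio scaling the tumour-only genes were 1152 higher and 1241 lower, and the lasting genes 2132 and 1507. Another 167 genes were early-only, with 90 higher (0.578%) and 77 lower (0.494%). A further 81 genes had opposite effects, 44 lower at day 4 and higher in tumours (0.282%) and 37 the other way round (0.237%). Genes called in 1 effect whose difference was not called stayed without a class: 2905 in the tumour effect and 619 in the day 4 effect. The authors' deposited table gave an adjusted p under 0.05 to 3813 genes at day 4 and 10091 in tumours, with 3259 called in both in the same direction and 83 in opposite directions.

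**Figure D1:**
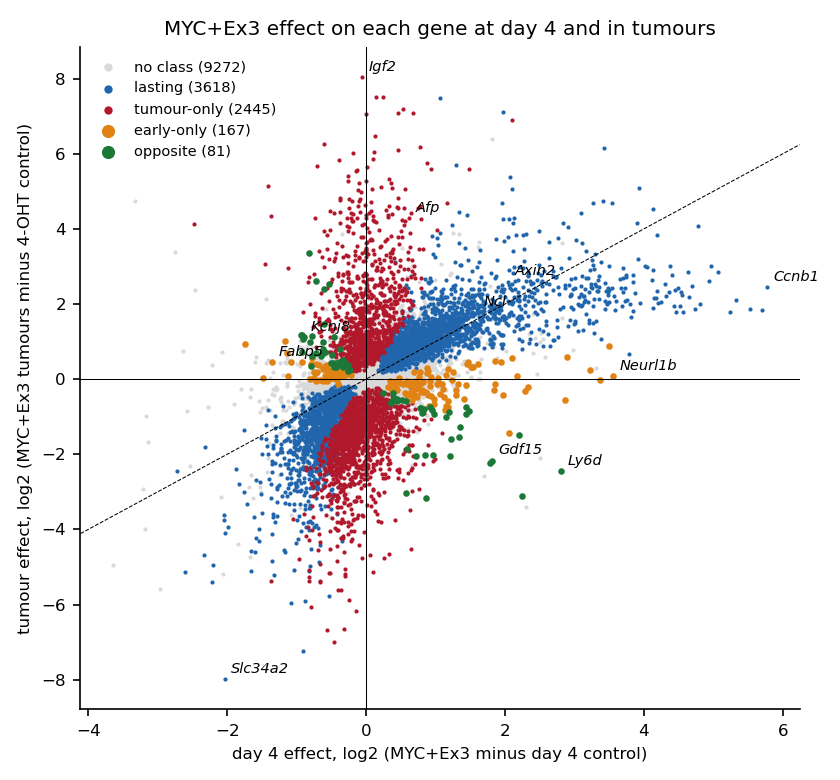
Each point is 1 of the 15583 genes tested, with the day 4 effect on the x axis and the tumour effect on the y axis, both as log2 differences; colours give the class and the dashed line marks equal effects. The 3618 lasting genes lie in the upper right and lower left, tumour-only genes stand along the y axis up to Igf2 at +8.04, and the mitotic gene Ccnb1 lies far to the right at +5.77 with a tumour effect of +2.44.

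The 2 arms rest on different control livers, and these differed from each other. The day 4 controls and the 4-OHT controls did not overlap for 21.4% of all genes tested. This share was 31.1% of lasting higher genes, 9.11% of tumour-only higher genes, 30.6% of tumour-only lower genes, 36.7% of early-only higher genes and 35.1% of the opposite genes that fell in tumours. The levels in both controls are given for the genes described in most detail.

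Targets of MYC rose at both stages. All 23 genes listed for ribosome biogenesis rose at day 4 and all 23 rose in the tumours, with median effects of +1.47 and +1.58 on the log2 scale, and the difference was called for none of them by limma or by voom on the recovered reads (0 at an unadjusted p under 0.05). Of 16 other MYC targets, 15 rose in both effects and none had a called difference (0 at an unadjusted p under 0.05). The medians over all genes tested were 0.00 at day 4 and 0.00 in tumours.

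Ncl encodes nucleolin, a nucleolar protein of ribosomal RNA synthesis. Its level was 49.7, 75.6, 45.6, 58.5 and 63.9 in the day 4 controls and 188, 188, 175, 191 and 150 in the day 4 MYC/Ex3 livers, and it was 220, 239 and 210 in the tumours against 50.8 to 79.9 (median 69.1) in the 4-OHT controls. The groups were apart at both stages, and both control groups lay in the same range. The effects were +1.61 (SE 0.14, adjusted p = 3.0e-08 by limma) and +1.77 (SE 0.15, adjusted p = 6.4e-09), and their difference was 0.16 (SE 0.20). Nop56, a core protein of box C/D nucleolar particles, had effects of +2.06 and +1.68, the most negative difference of the list at -0.38 (SE 0.19, adjusted p = 0.17). Polr1a, the largest subunit of RNA polymerase I, had +1.14 and +1.65, the most positive difference at 0.51 (SE 0.35, adjusted p = 0.33). Among the other MYC targets Cad, which starts pyrimidine synthesis, was at 148 and 162 in the 2 day 4 MYC/Ex3 livers with low keratin (at most 1 RPKM) and at 38.2, 64.5 and 37.3 in the 3 above that, all above the controls (10.9 to 18.5). Its tumour levels of 162, 151 and 149 were close to the former pair. Srm, spermidine synthase, had effects of +1.91 and +1.77.

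The feedback genes of Wnt signalling were raised early and more of them were raised in tumours. Of 12 genes tested, 7 rose at day 4 and all 12 in the tumours, with median effects of +1.00 and +2.05, and the difference was called for 5, all larger in tumours. The 5 were Wif1, Nkd1, Tnfrsf19, Tcf7 and Znrf3. The count of 5 was 2 without tumour 1, 2 without tumour 3 and 1 among males only. Wif1 passed the filter for testing only through the 3 tumours, so it was not tested in any of these fits.

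Axin2, which rebuilds the β-catenin destruction complex, was at 7.81, 10.1, 12.8, 10.0 and 8.95 in the day 4 controls. In the day 4 MYC/Ex3 livers it was 72.1 and 70.6 in the low-keratin pair and 30.6, 21.5 and 47.6 in the other 3. The tumours had 132, 87.7 and 116 and the 4-OHT controls 9.70 to 23.5 (median 19.9). Both groups were apart from their controls, and the effects were +2.05 (adjusted p = 1.8e-05) and +2.60 (adjusted p = 7.7e-07) with no called difference (0.55, SE 0.43, adjusted p = 0.40). Lgr5, the R-spondin receptor, followed with +1.48 and +2.02. Wif1 and Nkd1, a secreted and an intracellular Wnt antagonist, showed no called effect at day 4. Wif1 was at or below 0.932 in all 17 livers and at 7.83, 10.5 and 14.1 in the tumours, and Nkd1 was at 5.31 to 17.6 in the day 4 livers and at 74.9, 30.2 and 60.3 in the tumours. Their differences were +2.91 (SE 0.32, adjusted p = 1.1e-06) and +1.76 (SE 0.38, adjusted p = 0.0017). Only the tumours brought Wif1 over the filter of a level of at least 1 in at least 3 libraries, so its p-value is no independent support.

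The zonation genes did not follow 1 pattern. Among 17 pericentral genes, 1 rose and 1 fell at day 4, and 3 rose and 7 fell in tumours. Over all genes tested, 17.4% rose and 11.4% fell at day 4, and 30.0% rose and 28.0% fell in tumours. The ammonium transporter gene Rhbg rose at both stages (+1.80 and +1.76), while Glul, glutamine synthetase, was between 434 and 873 in all libraries, near the top of the range, with effects of +0.20 that were not called. Cyp2a5, a pericentral P450, was at 440 in the day 4 MYC/Ex3 livers (mean) against 316 and at 108 in the tumours against 259, with a difference of -1.76. The cytochrome Cyp1a2 behaved likewise, with a tumour effect of -0.83 (adjusted p = 3.2e-04); in the fit of all 33 libraries the tumour effects of both were not called (adjusted p = 0.053 for Cyp2a5 and 0.11 for Cyp1a2). 

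Part of the serine synthesis and ATF4 list rose. Of 13 genes of this pathway and of the ATF4 response, 5 rose and 1 fell at day 4, and 6 rose and 1 fell in tumours. The difference was called for 4, all higher. Of all genes tested, 17.4% rose at day 4, 30.0% rose in tumours and 9.36% had a higher difference. Phgdh, the first enzyme of serine synthesis, was at 1.50 to 4.71 in the day 4 controls and at 62.3, 97.2, 19.3, 92.6 and 13.6 in the day 4 MYC/Ex3 livers. It reached 287, 319 and 290 in the tumours, against 1.14 to 4.81 (median 3.57) in the 4-OHT controls. The 3 ranges (controls, day 4, tumours) did not overlap, and the effects were +3.42 and +6.16 with a difference of +2.74 (SE 0.66, adjusted p = 0.0045). Psat1, the next enzyme, had effects of +3.27 and +4.70, with a difference of +1.43 (adjusted p = 0.057). Slc7a5, a transporter of large neutral amino acids, had +0.99 and +3.24. Asns, asparagine synthetase, was a tumour gene: it was at 4.01 to 72.7 in the day 4 MYC/Ex3 livers, overlapping the controls (0.725 to 27.1), and at 295, 332 and 317 in the tumours (difference +4.11, adjusted p = 0.0094, and 0.067 with the S15 controls only). The fall at both stages was of Chac1, a glutathione-degrading enzyme (-2.32 and -1.81). The stress genes Ddit3 and Trib3 had effects of 0.34 or less in size, none of them called, and Shmt2, a serine hydroxymethyltransferase, had +0.27 and +0.09, neither called.

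**Figure D2:**
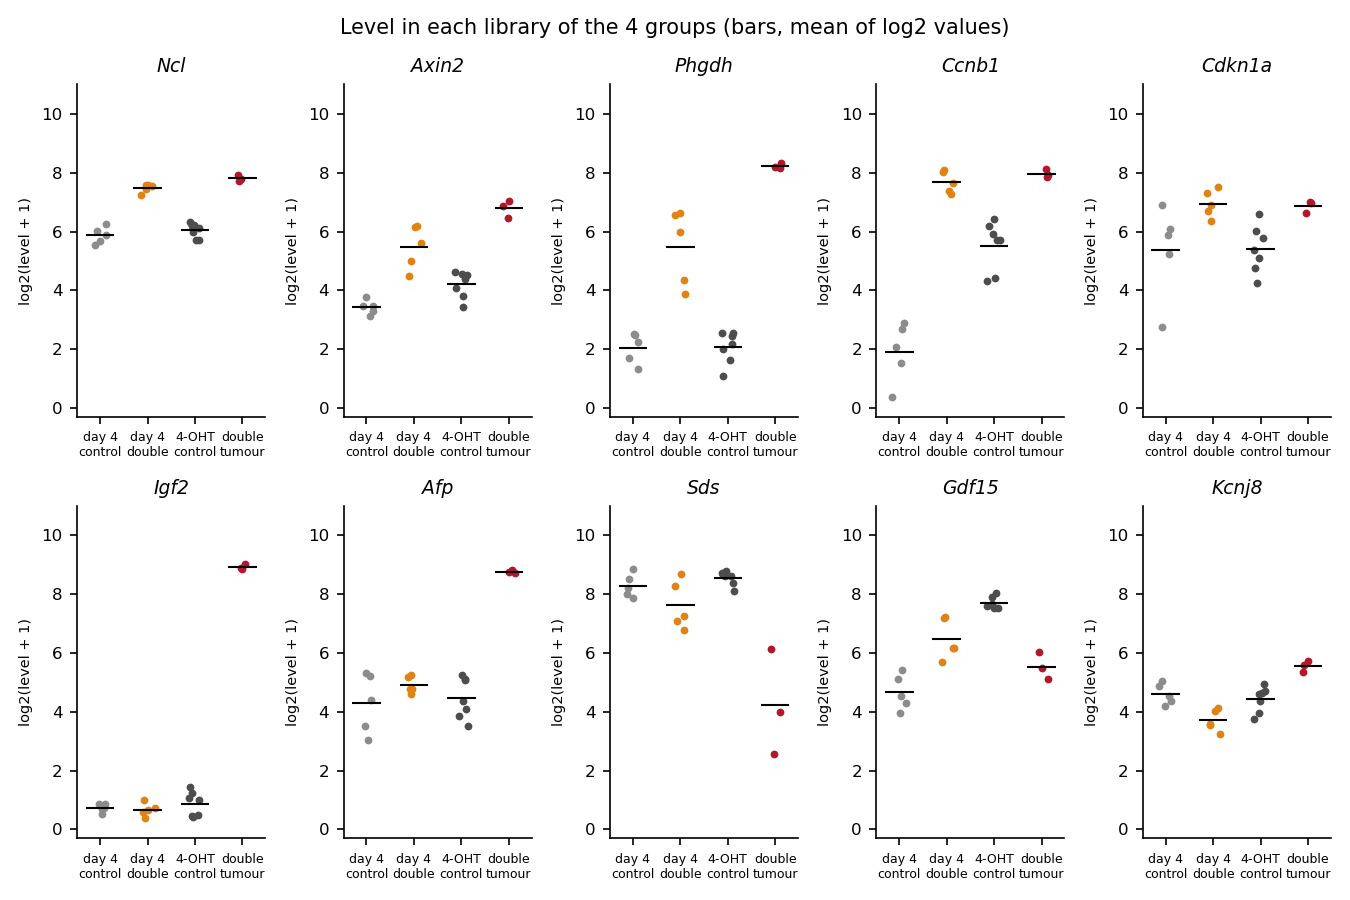
Points are single libraries, on a log2(level + 1) axis, for 10 genes in the day 4 controls, day 4 MYC/Ex3 livers (double), 4-OHT controls and MYC/Ex3 tumours (double tumour); bars are means of the log2 values. Ncl and Axin2 are up at both stages, Phgdh rises further in tumours, Ccnb1 starts from a higher level in the 4-OHT controls, and Igf2 and Afp are high only in the 3 tumours of these 20 libraries.

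Cell cycle genes rose at both stages, with a smaller effect in tumours, where the controls had higher levels. All 25 mitotic genes rose at day 4 (median +4.15) and all 25 rose in the tumours (median +2.09), and the difference was called for 17, all lower. From the day 4 MYC/Ex3 livers to the tumours the list had a median change of +0.72. The control side rose by a median of +2.64, and all 25 genes were higher in each 4-OHT control than in any day 4 control.

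Ccnb1 encodes cyclin B1, the activator of Cdk1 at entry into mitosis. It was at 3.22, 0.302, 1.90, 5.50 and 6.33 in the day 4 controls and at 272, 262, 165, 155 and 198 in the day 4 MYC/Ex3 livers. It was at 240, 277 and 233 in the tumours and at 18.7 to 86.0 (median 51.5) in the 4-OHT controls. The MYC/Ex3 groups overlapped and the control groups did not. The effects were +5.77 (SE 0.43, adjusted p = 4.8e-09) and +2.44 (SE 0.47, adjusted p = 1.6e-04), and the difference was -3.33 (SE 0.63, adjusted p = 6.1e-04). Mki67, the proliferation marker Ki-67, had the same arrangement, with means of 8.50 and 205 at day 4 and 90.2 and 305 in the late arm. Ckap2, a spindle protein, had the lowest difference of the list (-3.87) and was the exception in its levels, at 113 to 205 in the day 4 MYC/Ex3 livers and 111, 119 and 95.0 in the tumours. Aurka, Aurora kinase A, had the highest, at -0.53 (SE 0.48), which was not called. With the S15 controls only, or among males only, the difference was called for 10 of the 25. 

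The DNA replication list moved less. All 23 genes rose at day 4 (median +2.30) and 21 rose in tumours (median +1.94); Tk1, thymidine kinase, had a tumour effect of +0.38 that was not called. The difference was called for Gins2 (-1.76), Mcm5 (-1.74) and Mcm6 (-1.09), members of the replicative helicase, and with the S15 controls only it was called for none of the 23. Here too the control side was higher in the late arm, by a median of +1.71. The control groups were apart for 16 of 23 genes, against 21.4% of all genes tested. Orc1, a subunit of the origin recognition complex, had the largest positive difference at +0.77 (SE 0.45), not called.

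Many promoters of the mitotic genes hold a short element, shown here because this list had the largest median at day 4 of the lists. The CHR element, TTTGAA read on either strand, binds the DREAM and MuvB complexes that hold mitotic genes down in resting cells. RefSeq windows (GRCm38.p6) from 250 bases before to 50 bases after the gene start were found for 22 of the 25 genes, and 16 of the 22 (72.7%) held TTTGAA, against 18.1% of all 27025 genes with a window. The 150 bases before the start are printed for 4 of them, 5′ to 3′ on the gene's strand, with TTTGAA or its reverse complement in capitals.
Cdk1, chr10:69352913-69353062, minus strand: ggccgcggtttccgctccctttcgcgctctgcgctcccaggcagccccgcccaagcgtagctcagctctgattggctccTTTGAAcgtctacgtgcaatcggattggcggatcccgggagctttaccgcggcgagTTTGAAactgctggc
Cdc20, chr4:118437344-118437493, minus strand: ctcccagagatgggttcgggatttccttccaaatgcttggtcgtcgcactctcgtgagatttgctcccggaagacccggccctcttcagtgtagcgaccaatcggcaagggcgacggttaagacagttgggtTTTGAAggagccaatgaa
Kif11, chr19:37376232-37376381, plus strand: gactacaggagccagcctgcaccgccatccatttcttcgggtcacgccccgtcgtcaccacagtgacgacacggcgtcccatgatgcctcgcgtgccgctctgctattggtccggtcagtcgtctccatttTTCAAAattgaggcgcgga
Ube2c, chr2:164769779-164769928, plus strand: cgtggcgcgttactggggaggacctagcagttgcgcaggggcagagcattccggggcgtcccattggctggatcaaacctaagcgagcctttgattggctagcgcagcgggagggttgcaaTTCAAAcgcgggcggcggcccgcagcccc
In Cdk1 the matches began 71 and 15 bases before the start, in Cdc20 18, in Kif11 19 and in Ube2c 29. The kinase Cdk1 had effects of +4.44 and +1.94, the anaphase activator Cdc20 +5.53 and +1.88, the spindle motor Kif11 +4.12 and +2.64, and the ubiquitin-conjugating enzyme Ube2c +3.47 and +2.01.

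The E-box CACGTG, the preferred site of MYC and MAX, was held by 4 of the 19 ribosome biogenesis windows (21.1%) and by 13.1% of the 1836 windows of lasting higher genes, against 7.24% of all windows. The E2F motif TTTCCCGC was in 3.59% of the lasting higher windows and 1.11% of all, CHR in 16.7% and 18.1%, and the TCF/LEF motif CTTTGAT in 2.40% and 3.72%. Both strands were searched; CTTTGAT and TTTGAA share the letters TTTGA. Lasting higher genes come only from genes tested, whereas all windows include genes not tested, so contrasts with all windows are not matched. Tumour-only higher and all tested genes had windows for 77.3% and 77.1% of their members, under the 80% required. Shares for these are void as a background. As a description, windows of tested genes held the E-box in 9.48%, E2F in 1.93%, CHR in 12.8% and TCF/LEF in 2.55%. No direction is read from these shares, since they are void as a background. An example from the lasting genes is the window of Nop2, an RNA methyltransferase of ribosome assembly (effects +1.64 and +1.60), with the E-box in capitals 60 bases before the start.
Nop2, chr6:125131733-125131882, plus strand: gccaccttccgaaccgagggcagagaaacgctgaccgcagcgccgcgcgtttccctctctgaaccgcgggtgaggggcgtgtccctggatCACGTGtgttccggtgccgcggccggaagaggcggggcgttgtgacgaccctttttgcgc
A match is a description of these letters and no evidence of binding.

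Genes of the p53 response were raised early and less so in tumours. Of 16 genes, 13 rose at day 4 (median +1.30). In tumours 9 rose and 1, Gdf15, fell (median +0.75), and the difference was called for 9, all lower. The count of 9 was 5 with the S15 controls only and 3 among males only. From day 4 to the late arm the MYC/Ex3 side fell by a median of 0.33 and the controls rose by a median of 0.41. The controls were apart for 4 of the 16 genes, against 21.4% of all genes tested.

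Phlda3, a p53 target that restrains Akt, was at 7.45 to 12.3 in the day 4 controls and at 170, 182, 138, 138 and 141 in the day 4 MYC/Ex3 livers. In the tumours it was at 42.2, 24.4 and 14.9, overlapping the 4-OHT controls at 10.4 to 20.6 (median 16.2). The early groups were far apart, with an effect of +3.79 (SE 0.22, adjusted p = 3.5e-10), and the tumour effect of +0.67 (adjusted p = 0.023) was not called without tumour 1 (adjusted p = 0.30) or without tumour 2 (0.055). Mdm2, the ubiquitin ligase of p53, was early-only: it was at 46.4 to 63.8 and at 152, 145, 105, 101 and 96.7 at day 4, and at 97.0, 77.4 and 80.5 in tumours against 68.0 to 96.5 in the 4-OHT controls, all above the day 4 controls (difference -1.04, adjusted p = 5.9e-04). The death receptor gene Eda2r had a day 4 effect of +3.80 and a difference of -1.80, with all 3 tumours (22.5 to 35.6) above the 4-OHT controls (4.38 to 9.06). Cdkn1a, the cyclin-dependent kinase inhibitor p21, had near equal effects of +1.58 (adjusted p = 0.035) and +1.46 (adjusted p = 0.042). Its calls depended on single libraries: the day 4 call was lost without any 1 of 5 day 4 libraries (adjusted p 0.053 to 0.083), and the tumour call without any 1 of the 3 tumours or of 4 of the 4-OHT controls (0.056 to 0.11). Bbc3, the cell death gene PUMA, had +1.27 and +1.39. Cdkn2a, the Ink4a/Arf locus, stayed at or below 1.30 in all 20 libraries, although its early rise was called.

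**Figure D3:**
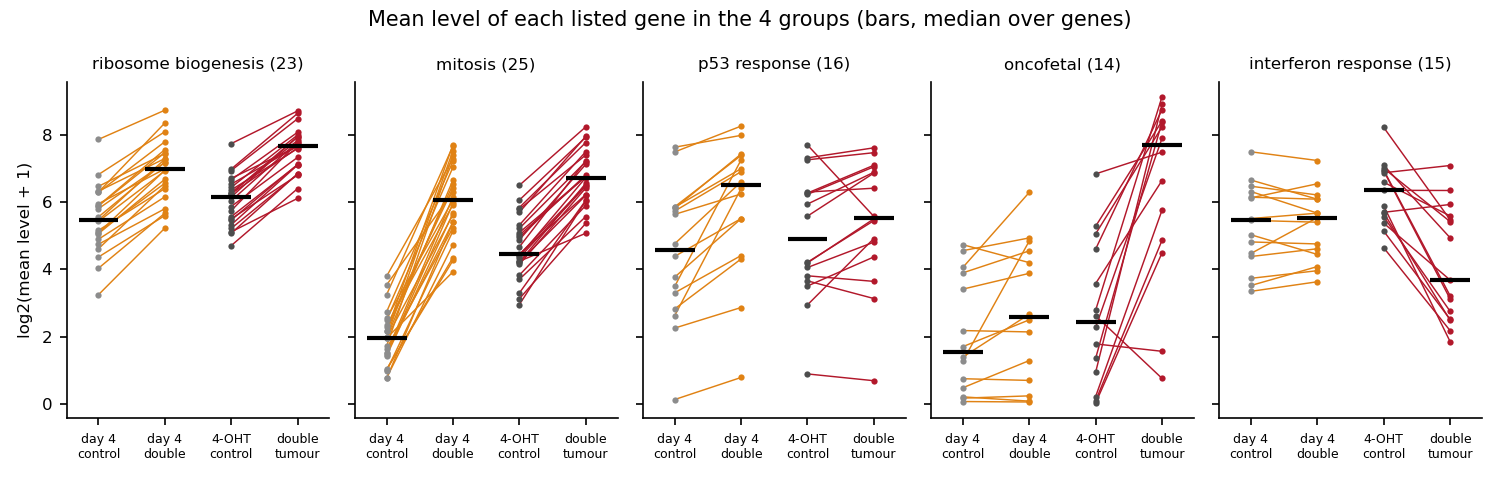
Each point is the mean level of 1 gene in 1 group, as log2(mean level + 1), for 5 gene lists with the number of genes in brackets; lines join each MYC/Ex3 group to its own controls and bars are medians over genes. In the mitosis panel the 4-OHT controls start a median of 2.64 higher than the day 4 controls while the MYC/Ex3 groups differ by a median of 0.72, and in the oncofetal panel the rise is in the tumours.

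The oncofetal genes, which are active in fetal liver and silent in the adult, had the largest median tumour effect of the lists. Of 14 genes tested, 1 (Gpc3) rose at day 4, whereas 11 rose and 1 fell in the tumours, with median effects of +0.49 and +4.38. The difference was called for 12, 11 of them higher. Of 14 imprinted growth genes, 3 of which are in both lists, 1 rose and 1 fell at day 4, 11 rose and 2 fell in tumours, and the median effects were +0.19 and +3.56. The controls were apart for 1 gene of each list, against 21.4% of all genes tested. From day 4 to tumours the MYC/Ex3 groups rose by medians of 4.17 and 3.63 against 0.26 and 0.50 in the controls. Among males only the difference was called higher for 7 oncofetal genes.

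Igf2, the fetal insulin-like growth factor, was below 1.75 in all 17 livers: it was at 0.43 to 0.826 in the day 4 controls, 0.32 to 0.981 in the day 4 MYC/Ex3 livers and 0.353 to 1.74 in the 4-OHT controls. In the tumours it was at 470, 520 and 463. It had the largest tumour effect of the genes named by the rule, +8.04 (SE 0.21, adjusted p = 2.0e-16), and a day 4 effect of -0.06 (SE 0.20). Afp, α-fetoprotein, was at 7.15, 20.1, 36.2, 10.5 and 39.2 in the day 4 controls, at 26.7, 35.6, 26.2, 23.2 and 37.0 in the day 4 MYC/Ex3 livers, at 10.6 to 37.4 (median 19.9) in the 4-OHT controls, and at 424, 451 and 431 in the tumours. The 3 liver groups overlapped and the tumours stood above them all (difference +3.67, SE 0.57, adjusted p = 8.2e-05).

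H19, the imprinted RNA next to Igf2, did not stay as low at day 4. It was at 1.90, 2.34, 5.36, 120 and 9.53 in the day 4 MYC/Ex3 livers against 0.464 to 3.48 in their controls, a day 4 effect of +2.10 that was not called (adjusted p = 0.054) and was carried by MYC/Ex3 liver 4. In that liver Igf2 was at 0.664 and Afp at 23.2, within the range of the others. The tumours had 551, 613 and 541 (difference +4.79, adjusted p = 0.0055, and 0.14 among males only). Gpc3, a membrane glypican used as a marker of hepatocellular carcinoma, rose at both stages, from 0.671 to 2.84 in the day 4 controls to 2.99 to 7.36, and to 245, 232 and 242 in the tumours from 2.26 to 6.47. Bex1, a small signalling adaptor, was at 321, 365 and 327 in the tumours and at or below 3.90 elsewhere. Grb10 and Peg10, both imprinted, had differences of +4.52 and +4.85. The imprinted zinc finger gene Peg3 had opposite effects, -0.82 at day 4 (adjusted p = 0.019) and +3.37 in tumours. The members that fell in tumours were Igf2bp2 (-1.79), Ndn (-2.13) and Plagl1 (-1.01), all at low levels, while Igf2bp3 rose by 3.10. Without the rescaling of RPKM the falls of Ndn and Plagl1 were not called (adjusted p = 0.23 and 0.37 by limma). With median ratio scaling the imprinted list kept 2 called falls in tumours.

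Other tumour-only genes outside the lists reached similar sizes. Shbg, the sex hormone-binding globulin, had 0 reads in all 7 4-OHT controls and levels of 145, 208 and 202 in the tumours, at least 214-fold higher when each control is set to 3 reads. Kcnk16, a potassium channel of the pancreatic islet, had 0 reads in the same 7 livers and in all 10 day 4 livers, and levels of 140, 119 and 143 in the tumours, at least 97-fold higher than the 4-OHT controls. Kcnk16 was tested only because the 3 tumours passed the filter. Ggt1, γ-glutamyltransferase, was at 267, 260 and 297 in the tumours and at or below 2.11 in the 17 livers.

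Whether the tumour patterns need the Ex3 allele was examined with the 3 tumours and 5 day 4 livers that carry MYC alone. In a fit of all 33 libraries, the difference between effects of MYC/Ex3 departed from that of MYC alone for 214 of 15961 genes (1.34%). Among them were Wnt feedback genes, all larger with MYC/Ex3. Their departures were +3.23 for Nkd1 (SE 0.55, adjusted p = 6.7e-04 by limma), +3.03 for Tnfrsf19, +2.79 for Notum, +2.54 for Wif1 and +2.38 for Tcf7. Part of these came from the MYC-alone side, where the difference between effects was -1.46 for Nkd1, -1.65 for Tnfrsf19 and +0.36 for Wif1. It was -2.69 for Notum and -1.28 for Tcf7, both called. Genes that fell in the tumours were among them too, with -3.87 for Sds (SE 0.67, adjusted p = 8.9e-04), -3.43 for C9, -3.35 for Cyp4f14, -3.35 for Apol9b and -2.73 for Apol9a. Most of these also had a lower difference between effects with MYC alone. It was -3.31 for Apol9a, -3.00 for Apol9b and -1.91 for Cyp4f14, all called. For C9 it was -2.20 and for Sds +0.20, neither called. Igf2 and Afp were not among the 214: the departures were +0.04 (SE 0.34, adjusted p = 1.00) and +0.88 (SE 0.86, adjusted p = 0.88). Both genotypes have the same controls, which cancel out of each departure. All 3 tumours with MYC alone were male by Xist and Ddx3y, against 2 of 3 MYC/Ex3 tumours. Departures that were not called do not show that the genotypes act alike.

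**Figure D4:**
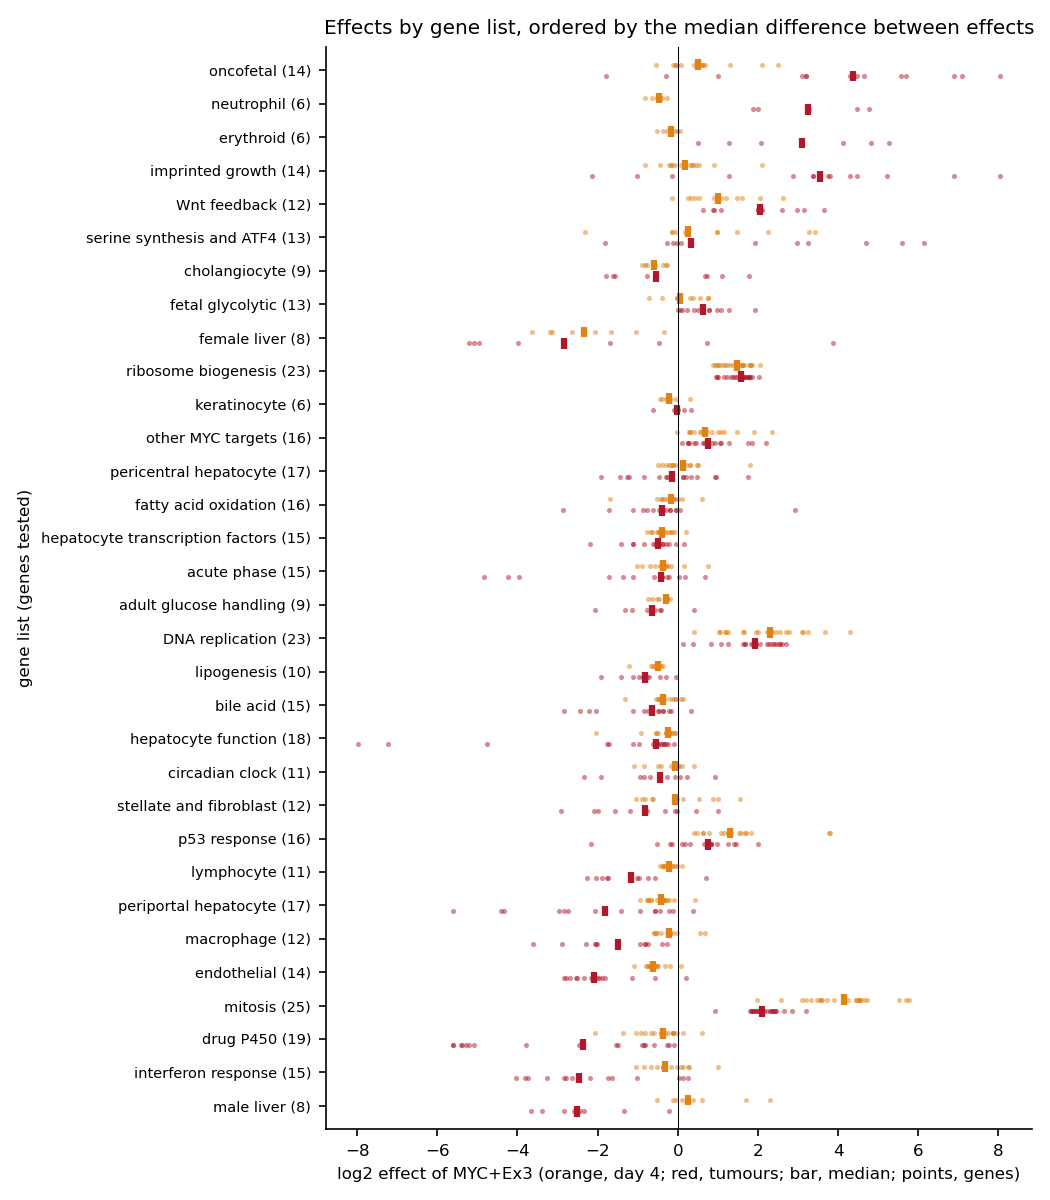
Each row is 1 of the gene lists with the number of genes tested; points are genes, bars medians, orange the day 4 effect and red the tumour effect, on a log2 axis. Oncofetal and imprinted genes have the highest tumour medians (+4.38 and +3.56), followed by neutrophil and erythroid genes (+3.26 and +3.10), ribosome biogenesis genes have medians of +1.47 and +1.58, and mitosis is the list with the largest median at day 4 (+4.15).

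Periportal and drug-metabolising genes fell in the tumours. Of 17 periportal genes, 7 fell at day 4 (median -0.41) and 14 fell in the tumours (median -1.80), and the difference was called for 9, all lower. The early count was unstable: it was 1 with the high-keratin day 4 libraries only, 3 without day 4 MYC/Ex3 liver 2 and 0 among males only. Of 19 drug-metabolising P450 genes, 1 fell at day 4 and 16 in the tumours, with medians of -0.36 and -2.37, and the difference was called for 11, all lower (6 in the fit of all 33 libraries). Over all genes tested, 11.4% fell at day 4 and 28.0% in tumours, and 13.8% had a lower difference.

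Cyp2f2, a periportal P450, was at 577, 516, 503, 534 and 492 in the day 4 controls and at 407, 373, 368, 447 and 385 in the day 4 MYC/Ex3 livers. The groups did not overlap, yet the day 4 effect of -0.41 was not called (adjusted p = 0.32). The fit uses 1 estimate of the spread per gene over the 4 groups, which includes the spread of the tumours. The authors' deposited table gave a day 4 change of -0.43 (adjusted p = 5.3e-04 by DESeq2), so a fall at day 4 is not excluded. In the tumours it was at 3.71, 25.0 and 4.00 against 367 to 450 (median 424), an effect of -5.60 (SE 0.31, adjusted p = 1.5e-11). Sds, serine dehydratase, was at 4.94, 69.4 and 14.8 in the tumours against 275 to 443, with tumour 2 the highest for both genes. Pigr, the receptor that carries immunoglobulin A into bile, had effects of -0.66 and -4.41. Cyp4f14, a leukotriene hydroxylase, had -0.36 (not called) and -5.61. The carboxylesterase Ces3b fell at both stages, from a mean of 397 to 208 at day 4 and from 260 to 0.777 in the tumours. Not all members fell: Cdh1, Hpd and Cyp3a25 had effects of 0.28 or less in size and were not called at either stage, and Cyp7a1, the rate-limiting enzyme of bile acid synthesis, had +0.13 and +0.33, neither called.

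Other hepatocyte functions fell in smaller steps. Of 18 hepatocyte function genes 16 fell in tumours, and of 9 genes of adult glucose handling 8. Of 16 genes of fatty acid oxidation 11 fell, and of 15 acute phase genes 11. Without the rescaling of RPKM these counts were 9, 5, 4 and 7, and with median ratio scaling 12, 7, 9 and 9. Over all genes tested 28.0% fell in tumours, and in those 2 fits 2269 and 4288 of 15583 did. Many genes of these lists lie near the top of the range, where differences may be understated. Whether this made the falls smaller was not tested. The acute phase genes Saa1 and Saa2 had the widest falls of their list (-4.24 and -4.83) and no called day 4 effect. The fall of C9, a complement component, was tumour-only, from 185 to 314 in the 4-OHT controls to 2.49, 8.71 and 1.12. Among hepatocyte transcription factors Foxa1 (-1.41) and Cebpa (-0.83) fell in tumours. Slc34a2, a phosphate transporter, had the largest fall of the named genes (-7.98), from 177 to 458 in the 4-OHT controls to at most 0.209 in the tumours; the day 4 controls had only 1.58 to 39.3 to begin with.

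Interferon response genes fell in the tumours. Of 15 genes, 1 rose (Cxcl10) and 1 fell (Stat2) at day 4, 12 fell in the tumours (median -2.47) and none rose, and the difference was called for 10, all lower (5 among males only). Over all genes tested, 28.0% fell in tumours and 13.8% had a lower difference. Ifit3, an interferon-induced antiviral protein, was at 38.2 to 92.7 in the day 4 controls and at 31.7, 24.9, 43.6, 176 and 61.2 in the day 4 MYC/Ex3 livers. In the tumours it was at 7.28, 9.82 and 5.97, below the 4-OHT controls at 92.4 to 166 (median 113). MYC/Ex3 liver 4, which also had the high H19, was the highest of its group for Ifit3, Ifi44 and Oasl2. The controls of the late arm were higher than those of the day 4 arm by a median of 0.91. The control groups were apart for 6 of 15 genes, against 21.4% of all genes tested. Rsad2 and Usp18 of the same list had tumour effects of +0.04 and +0.25, not called. Apol9a and Apol9b, near-identical neighbours whose reads may be split between them, fell from 140 to 229 and 203 to 291 in the 4-OHT controls to at most 2.20 in the tumours.

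Early-only changes were few. Neurl1b, a ubiquitin ligase that acts on Notch ligands, was at 2.94 to 4.74 in the day 4 controls and at 109, 110, 21.5, 48.7 and 49.7 in the day 4 MYC/Ex3 livers, with the low-keratin pair highest. It was at 21.3, 22.1 and 9.69 in the tumours and 7.22 to 24.6 (median 18.0) in the 4-OHT controls. These 2 groups overlapped, and all 7 of the 4-OHT controls were above the day 4 controls. The effects were +3.56 (adjusted p = 4.4e-07) and +0.08 (adjusted p = 0.89), and the difference was -3.48 (SE 0.55). Ddit4l, a stress-induced regulator of mTOR, was at 16.5 to 51.7 in the day 4 MYC/Ex3 livers, against 1.78 to 5.65, and at 11.8, 4.67 and 1.10 in the tumours, and its control groups overlapped. Ak1, adenylate kinase, had a day 4 effect of +3.49 and a tumour effect of +0.87 (adjusted p = 0.093). H2afy3 (+2.33 at day 4), whose controls were also apart, was at 22.9 and 27.3 in the low-keratin pair and 3.42 to 8.25 in the others, and its day 4 effect was not called in the high-keratin libraries alone (adjusted p = 0.053).

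Among early-only falls, Fabp5, a fatty acid-binding protein, was at 255, 200, 331, 320 and 363 in the day 4 controls and at 95.6, 97.1, 91.1, 188 and 111 in the day 4 MYC/Ex3 livers. In the tumours it was at 275, 282 and 360, above or within the 4-OHT controls at 154 to 290 (difference +1.81, SE 0.29, adjusted p = 1.1e-04). Txnip, a thioredoxin inhibitor that responds to glucose, had -0.75 and +0.19, and its difference (+0.95) was not called without tumour 2 or 3 (adjusted p = 0.075 and 0.084). Efna1, an ephrin ligand, had -0.92 and +0.45, and its difference was not called without tumour 3 (adjusted p = 0.091). Gpr110, an adhesion receptor, fell from 43.7 to 65.8 in the day 4 controls to 10.9 to 36.3, but its 4-OHT controls (8.11 to 20.9) were already at the level of the tumours (10.2 to 17.5).

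Of the opposite genes, some had controls that were apart. Gdf15, a stress cytokine and p53 target, rose at day 4 from 34.1, 18.6, 22.2, 41.9 and 14.6 to 144, 147, 70.6, 51.4 and 71.3. In the late arm it was at 43.5, 33.5 and 64.0 in the tumours and at 182 to 264 (median 197) in the 4-OHT controls. All 7 of these controls were above every day 4 control, and the tumours overlapped the day 4 MYC/Ex3 livers. The effects were +1.82 and -2.17, with a difference of -3.98 (SE 0.42, adjusted p = 6.7e-07). Ly6d, a membrane antigen, had the same arrangement, with control means of 12.8 and 72.2 and effects of +2.81 and -2.46.

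For 3 other genes named by the rule the controls overlapped, and the MYC/Ex3 groups moved apart. Serpinb8, a protease inhibitor, was at 2.77 to 16.2 in the day 4 controls and 8.58 to 27.0 in the 4-OHT controls. It was at 62.1, 58.0, 25.1, 30.6 and 41.7 in the day 4 MYC/Ex3 livers and at 1.03, 1.17 and 0.805 in the tumours (difference -5.35, SE 0.55, adjusted p = 4.7e-07). Kcnj8, a subunit of ATP-sensitive potassium channels, was at 17.3 to 31.8 and 12.5 to 30.0 in the controls, at 8.57 to 16.7 in the day 4 MYC/Ex3 livers and at 52.4, 39.6 and 47.2 in the tumours. Birc3, an inhibitor of apoptosis in NF-κB signalling, had effects of -0.73 and +0.69, of which the first was not called in the low-keratin libraries alone (adjusted p = 0.086).

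Markers of other cell types moved with the tumour effect, and their part in the results above was not tested. Over all genes tested, 28.0% fell in tumours and 13.8% had a lower difference. Of 14 endothelial genes, 13 fell in the tumours (median -2.09) and the difference was called for 12, all lower. The summed level of the list was 1081 to 1694 in the 4-OHT controls and 420 to 515 in the tumours, and 997 to 1563 and 620 to 1103 in the day 4 groups. Bmp2, a sinusoidal signal to hepatocytes, was at 34.6 to 93.9 in the 4-OHT controls and 9.68, 11.2 and 5.53 in the tumours. The Wnt pathway ligands of the sinusoid, Wnt2 and Rspo3, had tumour effects of -2.80 and -2.69. At day 4, 11 of the 14 fell (median -0.62), but none did among the high-keratin libraries alone, and 7 did without MYC/Ex3 liver 1 or 2. Of 12 macrophage genes, 10 fell in tumours, with summed levels of 2735 to 3544 in the 4-OHT controls, 1350 to 1607 in the tumours, and 1437 to 2690 and 1587 to 2823 in the day 4 groups. The Kupffer cell receptor Timd4 was at 74.6 to 158 in the 4-OHT controls and 9.01, 6.90 and 6.39 in the tumours, while Lyz2 and Cd68 were not called. Of 11 lymphocyte genes, 9 fell in tumours. The count was 4 without the rescaling of RPKM and 9 with median ratio scaling. Of the 15583 genes tested, 2269 and 4288 fell in those 2 fits.

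Neutrophil and erythroid genes rose instead. All 6 neutrophil genes tested rose in the tumours (median +3.26) and none was called at day 4 by limma or by voom (0 at an unadjusted p under 0.05, median -0.48). Their summed level was 1203 to 1744 in the tumours, 118 to 482 in the 4-OHT controls, and 32.2 to 532 and 44.7 to 151 in the day 4 groups. Camp, the granule peptide cathelicidin, was at 220, 263 and 134 in the tumours and at or below 21.0 in all 17 livers (difference +5.16, SE 0.87, adjusted p = 1.8e-04). Of 6 erythroid genes, 5 rose in tumours (median +3.10). Their summed level was 705 to 1019 in the tumours and at most 464 in the livers. Slc4a1, an anion exchanger of red cells, was at 247, 283 and 169 in the tumours and at most 11.6 in the livers. Tumour 3 was the lowest of the tumours for both Camp and Slc4a1. Hbb-b1, β-globin, had a tumour effect of +0.51 that was not called. Of 9 cholangiocyte genes, 2 rose and 4 fell in tumours, where 30.0% of all genes tested rose and 28.0% fell. Sox9, of bile duct and progenitor cells, was at 9.30, 9.75 and 40.2 in the tumours against 1.45 to 7.20, with tumour 3 far the highest. In the authors' deposited table Sox9 had no adjusted p in tumours. There Prom1 of the same list rose in tumours (+1.31), while Krt19 and Spp1 fell (-1.88 and -1.81).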

How the data were processed

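RNA-seq of mouse liver was read from 1 deposited table of 21671 genes. The RPKM values were made by the authors; per the submitters' processing notes the tools were TopHat2 2.0.8, SAMtools, featureCounts 1.4.5-p1 and DESeq2 with build mm9. The labels' protocols name a stranded total RNA kit. The same table holds the authors' deposited log2 fold changes and adjusted p-values. These were used only for counts of calls and where a value is named as theirs.

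Each RPKM column was rescaled to sum to 1000000, and log2(level + 1) was fitted with limma 3.58.1 (limma-trend, R 4.3.3) over 20 libraries. Genes with a level of at least 1 in at least 3 libraries were tested (15583), p-values were Benjamini-Hochberg adjusted over them, and the difference between effects was a contrast. Every one of 20485 genes above 0 gave whole reads (tolerance 0.001), which set the depths and a voom alternative; 1186 genes were at 0. The fit was tested on simulated data. Promoter windows were RefSeq windows of GRCm38.p6, matched by symbol, and no coordinates were converted. Figures were drawn with matplotlib 3.10.9.

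The members and lists were chosen with earlier results of these data known. Genes were named by size within each class, by a panel, and by the highest and lowest difference in each list, among genes with a group mean of at least 10 for the classes. Chosen after their values were seen were Cd68, Cdk1, Cebpa, Chac1, Cxcl10, Ddit3, Eda2r, Grb10, Igf2bp3, Kif11, Mcm6, Mdm2, Nop2, Oasl2, Peg3, Psat1, Rhbg, Slc7a5, Stat2, Tcf7, Tk1, Tnfrsf19, Trib3, Ube2c, Wnt2 and Znrf3. Alternatives changed the scaling, pseudocount, filter, libraries, covariates and weights. Results for some genes are not reported here.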

Additional observations from a re-analysis of the deposited data

Results flagged for a closer look

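Among 48 named genes in 144 groups, 9 single libraries stood apart from the others of their group. A rate of 1 in 20 groups would give 7.2 of these 144, but the rate at which the rule flags libraries by chance was not measured. In day 4 MYC/Ex3 liver 4, H19 was at 120 (next 9.53), Fabp5 at 188 (next 111) and Tbx3 at 17.5 (next 51.6). In day 4 control 3, Gbp11 was at 157 (next 60.7) and Cdkn2a at 0.431 (next 0), and in day 4 control 1 Shbg was at 0.378 (next 0). Among the 4-OHT controls, Ak1 was at 8.89 (next 3.99) and H19 at 20.2 (next 8.29) in replicate 1, and P2ry4 at 71.9 (next 45.0) in replicate 4.

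The MYC/Ex3 effect differed between tumours and day 4 for 3612 genes by the limma contrast. In tumours with MYC alone, which the main comparison does not use, the mean level was 263 for Afp and 461 for Igf2, against highest 4-OHT control levels of 37.4 and 1.74.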

How the results depend on the processing

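No paired analysis was possible because the labels give the groups no shared replicate numbers. Without rescaling of RPKM, the difference was called for 2227 genes and 1397 were tumour-only. Opposite genes numbered 38 with all 33 libraries, 122 with the low-keratin day 4 libraries, 52 with the S14 and 49 with the S15 controls, and early-only genes 87 with the latter. Sample weights gave 418 early-only and 223 opposite genes. Males only, an alternative chosen after seeing the data, gave 2697 day 4 calls, 1675 differences, 2149 lasting, 1283 tumour-only, 67 early-only and 47 opposite genes. Requiring at least a 2-fold change gave 1173 day 4 calls, 4314 tumour calls, 2317 differences, 949 lasting, 59 early-only and 10 opposite genes. Leaving out 1 library at a time gave 110 to 225 early-only and 49 to 111 opposite genes, lowest without tumour 3 and without day 4 MYC/Ex3 liver 2. In the low-keratin libraries the day 4 effect of Prox1 turned to 0.14 (adjusted p = 0.79 by limma). Of the single-gene values under all alternatives, 8289 kept direction and call, 437 lost the call in the same direction and 1 reversed. Only effects called in the main fit entered these counts, so no value could gain a call. Many of the genes were picked for the size of these effects, and many alternatives left out only 1 library. The share kept is therefore no measure of stability over all genes. The causes were not tested. Day 4 libraries were shallower, so low genes are less precise there.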
